A study of Mus musculus with 7 samples.

Results

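Kinesins are motor proteins that use ATP to walk along microtubules or to take them apart. One set builds the mitotic spindle, moves chromosomes and separates the daughter cells, and is made mainly by dividing cells. Another set carries vesicles, endosomes and mitochondria and is also used by cells that do not divide. In bone marrow the first set follows cell division, and the most primitive stem cells divide rarely.

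The family was taken as all genes whose platform symbol is Kif followed by a number and at most 1 letter, from transcript clusters (the probes of a gene summarised as 1 value) that carry a single symbol. A total of 28 clusters fitted, for 27 of 14860 named genes. Kif1c had a pair of clusters and was represented by the one with the higher mean. A further 2 clusters that list a kinesin symbol beside another entry were left out, and kinesins without a single-gene cluster were not analysed here. By textbook role, 9 of the genes are mitotic motors, 10 are transport motors and 8 have other roles, among them cilium and centriole kinesins.

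The RNA came from LSK cells of bone marrow, a sorted fraction without mature lineage markers that carries Sca-1 and c-Kit and is rich in blood stem and progenitor cells, taken from adult FVB mice. One group held 3 mice labelled TRAF6 transgenic (numbers 03, 04 and 05), and the other held 4 wild-type littermates (21, 22, 23 and 24). No mouse had been treated. Each mouse had 1 Affymetrix mouse exon array, and the promoter that drives the transgene was not given in the sources used here.

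Values are log2 signals made by the authors with RMA, and every difference is labelled transgenic minus wild type on that scale. Signals of different clusters are not on a common scale, so levels are compared between arrays. The exception is a rough rank by mean signal, used to choose clusters and to mark low ones. Traf6 did not check the labels, at 7.52 to 8.14 on the labelled transgenic arrays and 7.95 to 8.33 on the wild-type arrays. Eif2s3y, a Y-linked gene, lay between 2.91 and 3.05 on the former and between 8.05 and 8.64 on the latter. Genotype and sex, as far as this Y-linked signal marks it, therefore cannot be told apart in any comparison here. Array 05 stood apart from the others, with the lowest median (5.98) and the lowest array weight (0.284), and was the lowest of the 7 arrays in 31.3% of all 23332 clusters. Of 8 LSK markers 6 were measured, with Kit at 10.15 to 10.67 and Cd34 at 10.77 to 11.19. All 6 had lower means on the labelled transgenic arrays, with a median difference of -0.17. Flt3 and Hlf, 2 of the 6, were lower on every labelled transgenic array than on any wild-type array, against 5.18% of all clusters.

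Promoters of the mitotic motors are shown first, because these genes are known to be switched on together in late cell cycle through the cell cycle genes homology region (CHR), an element bound by MuvB complexes, often near a CCAAT box bound by NF-Y. RefSeq promoters of assembly GRCm38.p6 were available for 24 of the 27 genes, 8 in each role group (promoters of Kif20a, Kif5a and Kif5b were not used here), and come from the C57BL/6J reference and not from FVB mice. The windows below run from 120 bases before the annotated gene start to 30 bases after it, with CHR letters (TTTGAA or its reverse TTCAAA) and CCAAT letters (or ATTGG) in capitals. They cover chr19:37376262-37376411 (plus strand) for Kif11, chr7:127042391-127042540 (minus strand) for Kif22, chr19:34922238-34922387 (plus strand) for Kif20b, chrX:100625945-100626094 (plus strand) for Kif4, chr2:109280618-109280767 (plus strand) for Kif18a and chr2:153291296-153291445 (plus strand) for Kif3b. Kif11, Kif22, Kif20b and Kif4 hold the CHR letters close to the start, Kif18a is the 1 of the 8 mitotic motors searched that lacks them, and Kif3b stands for the transport motors.
Kif11: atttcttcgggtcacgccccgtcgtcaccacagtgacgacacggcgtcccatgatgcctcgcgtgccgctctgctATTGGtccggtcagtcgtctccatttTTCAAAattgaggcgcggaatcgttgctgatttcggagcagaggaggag
Kif22: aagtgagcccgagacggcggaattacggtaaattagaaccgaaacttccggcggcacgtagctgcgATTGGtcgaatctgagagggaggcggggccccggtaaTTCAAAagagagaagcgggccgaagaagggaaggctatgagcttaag
Kif20b: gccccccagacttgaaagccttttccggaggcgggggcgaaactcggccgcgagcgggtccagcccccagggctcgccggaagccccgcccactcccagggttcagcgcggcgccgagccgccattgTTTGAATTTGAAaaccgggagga
Kif4: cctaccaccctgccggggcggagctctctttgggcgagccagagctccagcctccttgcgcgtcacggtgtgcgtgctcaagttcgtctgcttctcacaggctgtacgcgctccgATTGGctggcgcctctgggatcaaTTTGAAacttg
Kif18a: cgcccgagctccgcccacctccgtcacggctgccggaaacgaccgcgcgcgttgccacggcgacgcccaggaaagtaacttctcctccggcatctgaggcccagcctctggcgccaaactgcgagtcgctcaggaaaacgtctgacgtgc
Kif3b: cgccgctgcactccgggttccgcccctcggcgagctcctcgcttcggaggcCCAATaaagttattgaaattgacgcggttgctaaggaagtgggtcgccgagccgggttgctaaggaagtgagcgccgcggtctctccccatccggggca

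In the full windows of 250 bases before to 50 after the start, read on both strands, TTTGAA occurred in 7 of 8 mitotic motors, namely Kif11, Kif15, Kif20b, Kif22, Kif23, Kif2c and Kif4. It occurred in 1 of 8 transport motors (Kif1a, in 1 of its listed promoters) and in 2 of 8 other kinesins. Among all 27025 genes with a promoter 20.2% held it. The match began at position -19 in Kif11 and Kif15, at -17 in Kif22, at 3 in Kif23, at 8 in Kif20b and at 20 in Kif4, counted from the start as 1, while in Kif2c it began at -103. CCAAT occurred in 4 of 8 mitotic motors, 3 of 8 transport motors and 4 of 8 other kinesins, against 41.1% of all genes, and overlapped no CHR match in these windows. A match of letters is a description and does not show a bound site.

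Averaged over genes, mitotic motors stood above their wild-type mean on arrays 03 (0.47) and 04 (0.21), but not on array 05 (-0.016). Wild-type arrays 22 and 24 stood at 0.15 and 0.19. Transport motors lay close to their wild-type mean on arrays 03 and 04 and below it on array 05 (-0.18). Of the 9 mitotic motors 8 were higher, with a median difference of 0.23, against 49.7% higher and a median of -0.0018 over all clusters. The role lists were chosen with earlier results of these data known, so this share is description and not a test. No kinesin gene passed the adjusted threshold of 0.05 in limma, where 0.0214% of all clusters did, the Y-linked Eif2s3y among them. At unadjusted p under 0.05, Kif20a and Kif2c were higher, which is 2 of 27 genes against 5.22% of clusters, and 0 were lower against 5.05%. Groups that did not overlap were found for 1 kinesin on the higher side (background 5.17%) and 0 on the lower side (background 5.18%). Over the whole family of 27, then, the share past these limits was near the background. In bulk RNA of sorted cells, more dividing cells and more RNA per dividing cell cannot be told apart.

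Kif20a is the motor (Mklp2) that moves the chromosomal passenger complex to the spindle midzone as cells divide. Its signal was 7.57, 7.59 and 7.23 on labelled transgenic arrays 03, 04 and 05, and 6.98, 7.03, 6.92 and 6.98 on wild-type arrays 21 to 24. All 3 labelled transgenic arrays were above all 4 wild-type arrays, which lay within 0.11 of each other. The means were 7.47 ± 0.20 (SD, n = 3) and 6.98 ± 0.05 (SD, n = 4), a difference of 0.49 (SE 0.12, 95% interval 0.20 to 0.77, limma adjusted p = 0.332), or 1.40-fold. An exact permutation test gave a two-sided p of 0.0286, which is the smallest that 35 assignments allow. This test was run only on Kif20a, Kif2c and Kif1c, which were picked by their values. Groups that do not overlap, found for 5.17% of all clusters on the higher side, largely fix its result. This p is therefore not separate support. Kif20a kept an unadjusted p under 0.05 in 14 of 14 alternatives, with an adjusted p from 0.0874 to 0.670.

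Kif2c, the microtubule depolymerase MCAK that corrects faulty kinetochore attachments, read 8.07, 7.67 and 7.52 on arrays 03, 04 and 05 and 7.54, 7.45, 7.00 and 7.17 on arrays 21 to 24. Only array 05 lay among the wild-type values, just under array 21. The difference was 0.47 (SE 0.19, 95% interval 0.03 to 0.90, limma adjusted p = 0.455), and the exact permutation test gave p = 0.0857, two-sided. Its unadjusted p was above 0.05 with unmoderated least squares and when any 1 of arrays 03, 04, 23 or 24 was left out, where the difference ran from 0.31 to 0.51.

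**Figure D1:**
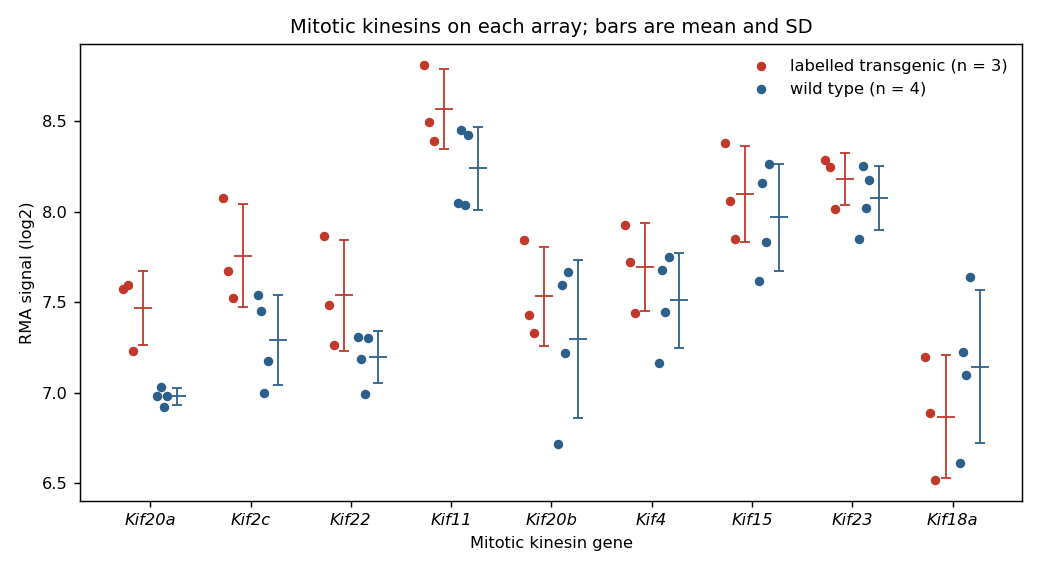
RMA signal (log2) of the 9 mitotic kinesins, 1 point per array, with the mean and SD of each group beside the points (labelled transgenic, n = 3; wild type, n = 4). Kif20a is the gene whose groups do not overlap, and its wild-type points span 0.11.

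Kif22 and Kif4 are chromokinesins, which push chromosome arms. Kif22 read 7.87, 7.48 and 7.26 on arrays 03, 04 and 05, against 7.31, 7.19, 7.00 and 7.30 on arrays 21 to 24, a difference of 0.34 (SE 0.17, adjusted p = 0.531). Kif4 read 7.93, 7.72 and 7.44 against 7.17, 7.68, 7.44 and 7.75, a difference of 0.19 (SE 0.18, adjusted p = 0.765). In both genes array 03 was the highest of all and array 05 lay inside the wild-type range.

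Kif11 (Eg5) pushes the spindle poles apart, and Kif15 can share that work. Kif11 read 8.81, 8.50 and 8.39 on arrays 03 to 05 and 8.05, 8.45, 8.03 and 8.42 on arrays 21 to 24, a difference of 0.33 (SE 0.17, adjusted p = 0.547). Kif15 read 8.38, 8.06 and 7.85 against 7.62, 8.16, 7.83 and 8.26, a difference of 0.13 (SE 0.20, adjusted p = 0.862). For Kif11 the overlap came from array 05 lying under arrays 22 and 24, whereas for Kif15 only array 03 exceeded the wild-type values and without that array the difference was -0.012.

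Kif23 is the motor subunit of centralspindlin, and Kif20b is another motor of cytokinesis. Kif23 read 8.28, 8.24 and 8.02 against 7.85, 8.25, 8.02 and 8.17, and the groups overlapped almost fully, with a difference of 0.11 (SE 0.14, adjusted p = 0.821). Kif20b read 7.84, 7.43 and 7.33 against 6.71, 7.59, 7.22 and 7.67, a difference of 0.23 (SE 0.25, adjusted p = 0.786). Its wild-type arrays alone spanned 0.95, so the group difference was well inside the spread between mice.

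Kif18a, which dampens chromosome oscillations, was the 1 mitotic motor below the wild-type mean. It read 7.20, 6.89 and 6.52 on arrays 03 to 05 and 6.61, 7.22, 7.10 and 7.64 on arrays 21 to 24, a difference of -0.28 (SE 0.26, 95% interval -0.88 to 0.33, adjusted p = 0.756). Its wild-type range of 1.03 was the widest of the 27 kinesins.

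Within each group, most mitotic motors ranked the mice in a like order. Array 03 was the highest of the 7 in 7 of the 9 genes, against 20.2% of all clusters, and 8 of the 9 ran in the order 03, 04, 05, against 32.3% of all clusters. That order also held for 9 of 10 mitotic partners, 5 of 6 LSK markers and 5 of 10 transport motors, but for only 4 of 15 transport partners. It was thus not particular to the mitotic motors. Among wild-type mice, arrays 22 and 24 both exceeded arrays 21 and 23 in 7 of the 9 genes, against 20.8% of all clusters. The exceptions were Kif22 and Kif2c, and in Kif20a arrays 24 and 21 were almost equal (6.9839 and 6.9831). This pair had the highest count of all wild-type pairs in these same genes, so the share beside it is description and not a test. The median wild-type SD was 0.25 for mitotic motors, 0.13 for transport motors and 0.18 for all clusters. Averaged over the 9 genes, and set against each gene's wild-type mean, the signal stood at 0.47, 0.21 and -0.016 on arrays 03, 04 and 05, and at -0.21, 0.15, -0.13 and 0.19 on arrays 21 to 24. The groups therefore overlapped, since array 05 lay below arrays 22 and 24. Without array 03 the mitotic median was 0.0805, without array 21 it was 0.0707, and without array 24 it was 0.357.

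**Figure D2:**
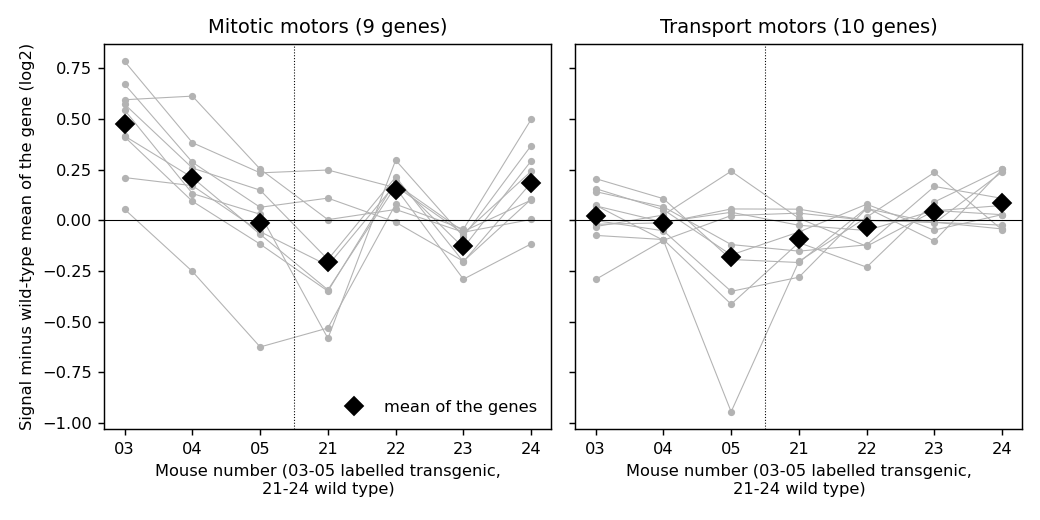
Signal on each array minus the wild-type mean of the same gene (log2), for 9 mitotic (left) and 10 transport (right) motors. Grey lines are genes and black diamonds are the mean of the genes. The mitotic means run from -0.21 on array 21 to 0.47 on array 03, the transport means from -0.18 on array 05 to 0.086 on array 24.

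Transport motors gave a median difference of 0.0098, with 6 of 10 higher and 4 lower, and none was at unadjusted p under 0.05 in limma. The median was slightly negative without array 03 (-0.041), 05 (-0.0077) or 21 (-0.014). Averaged over the 10 genes, the signal relative to the wild-type mean was 0.023, -0.012 and -0.18 on arrays 03, 04 and 05 and -0.094, -0.032, 0.040 and 0.086 on arrays 21 to 24. The mitotic median exceeded the transport median by 0.22. This gap was 0.121 without array 03, 0.0852 without array 21, 0.345 without array 05 and 0.350 without array 24. Taken array by array, the mitotic mean less the transport mean was 0.45, 0.22 and 0.17 for mice 03, 04 and 05 and -0.11, 0.18, -0.17 and 0.10 for mice 21 to 24, so mouse 05 lay just under wild-type mouse 22.

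Kif5b is the conventional kinesin heavy chain that most cells use. It read 8.86, 8.81 and 8.51 on arrays 03 to 05 and 8.58, 8.92, 8.85 and 9.10 on arrays 21 to 24, a difference of -0.14 (SE 0.16, adjusted p = 0.804). The related chains Kif5a and Kif5c, known from neurons, ran from 4.48 to 4.65 and from 3.87 to 4.24 over the 7 arrays, both under the 40th percentile of mean cluster signal (5.50). Neuron markers were measured for 4 of 5 genes, and their mean signal was 4.92 to 5.31 on labelled transgenic and 4.98 to 5.24 on wild-type arrays.

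Kif3a and Kif3b form the heterotrimeric kinesin-2 that serves vesicle and cilium transport, and Kif3c is a relative that pairs with Kif3a. Kif3a read 7.11, 7.01 and 6.71 against 6.70, 6.96, 6.80 and 7.15. Kif3b read 6.92, 6.82 and 6.59 against 6.71, 6.85, 6.72 and 6.79. Kif3c was the steadiest of the 3, at 6.62, 6.54 and 6.59 against 6.53, 6.50, 6.60 and 6.58. The differences were 0.04 (95% interval -0.32 to 0.40), 0.01 (-0.25 to 0.28) and 0.03 (-0.18 to 0.25), and these intervals hold differences of either sign.

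Among the carriers of the kinesin-3 family, Kif1c had the largest negative difference of all 27 genes. Its brighter cluster (6782149) read 7.71, 7.91 and 7.06 on arrays 03 to 05 and 7.80, 8.02, 8.24 and 7.96 on arrays 21 to 24, a difference of -0.45 (SE 0.21, 95% interval -0.95 to 0.05, limma adjusted p = 0.528). The exact permutation test gave a two-sided p of 0.0857. Array 05 was the low point, and without it the difference was -0.20. The other Kif1c cluster (6782147) differed by -0.013 (SE 0.11), at 6.58 to 6.80 against 6.60 to 6.85, so the clusters of this gene disagreed in size.

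Kif1b, a carrier of mitochondria and vesicle precursors, read 6.32, 6.30 and 5.98 against 6.29, 6.17, 6.49 and 6.65, a difference of -0.19 (SE 0.15, adjusted p = 0.705). Kif13a, a carrier of recycling endosomes, read 7.19, 7.12 and 6.93 against 6.90, 6.93, 7.22 and 7.16, a difference of 0.03 (SE 0.13, adjusted p = 0.963). Kif1a, best known from neurons, stayed between 4.66 and 4.76 on all 7 arrays. In each of these 3 genes the groups overlapped.

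**Figure D3:**
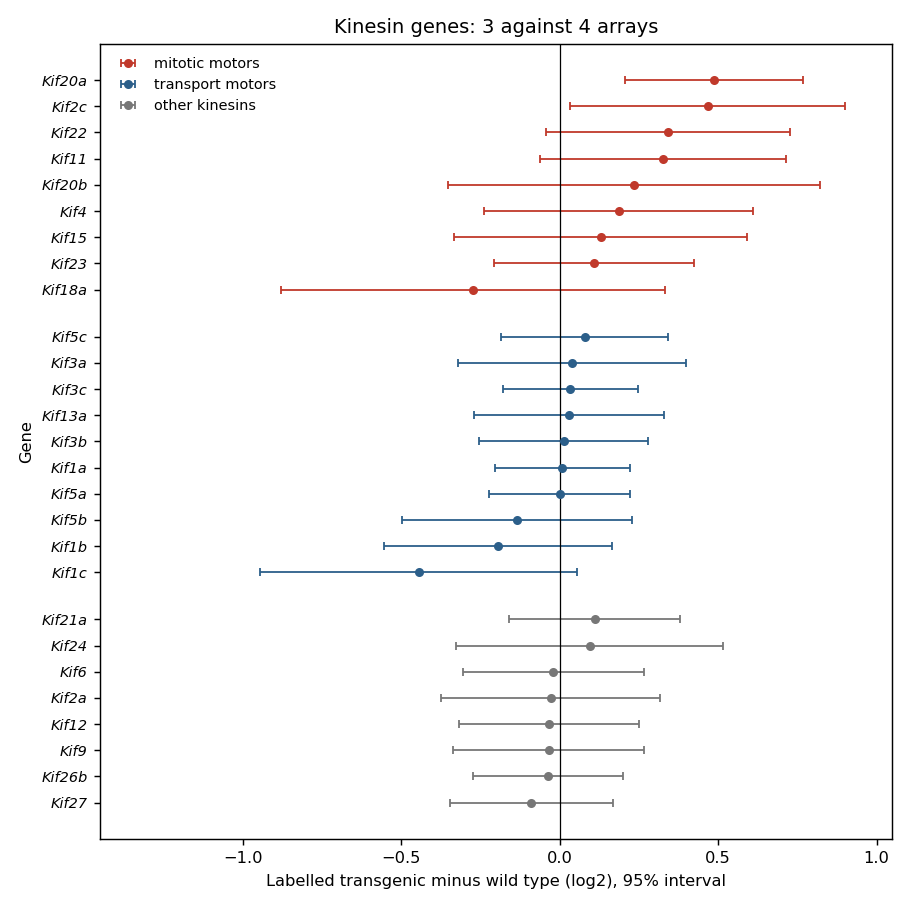
Labelled transgenic minus wild type (log2) for the 27 kinesin genes with 95% intervals from limma, grouped by role and sorted by size. Kif20a and Kif2c are the genes whose interval lies above 0, and no interval lies below 0.

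The 8 kinesins with other roles gave a median of -0.031, with 2 higher and 6 lower, none at unadjusted p under 0.05 in limma. Kif2a, a depolymerase used at spindle poles and in neurons, read 9.26, 9.04 and 8.81 against 8.83, 9.16, 9.10 and 9.18, a difference of -0.03 (SE 0.15, adjusted p = 0.969). Kif24, a depolymerase of the mother centriole, read 6.53, 6.27 and 5.94 against 6.01, 5.93, 6.34 and 6.33, a difference of 0.09 (SE 0.18, adjusted p = 0.895). In both genes the groups overlapped. The order 03, 04, 05 held for 3 of these 8 kinesins, near the 32.3% of all clusters. The remaining 6, Kif6, Kif9, Kif12, Kif21a, Kif26b and Kif27, lay under the 40th percentile of mean signal, with differences from -0.09 (Kif27) to 0.11 (Kif21a). Whether such low signals stand above background was not tested.

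Genes that work with the mitotic motors had higher means on the arrays labelled transgenic, though the groups overlapped in most of them. Of 11 listed partners 10 were measured, all 10 were higher (background 49.7%), and the median was 0.36. The list was chosen with earlier results of these data known, and array 03 was the highest of the 7 in 9 of the 10 genes. Counts over this list, set beside the background shares, are therefore description and not a test. In limma none passed the adjusted threshold, and 5 stood at unadjusted p under 0.05 on the higher side (background 5.22%) and 0 on the lower side (background 5.05%). Averaged over the 10 genes and set against the wild-type mean, the signal was 0.54, 0.35 and 0.13 on arrays 03, 04 and 05 and -0.088, 0.14, -0.18 and 0.13 on arrays 21 to 24. Array 05 thus lay between wild-type arrays 22 and 24, and it was below the highest wild-type array in 7 of the 10 genes. Prc1, the microtubule bundler of the midzone, read 8.59, 8.39 and 8.23 on arrays 03 to 05 and 7.87, 7.89, 7.59 and 8.12 on arrays 21 to 24, a difference of 0.54 (SE 0.15, adjusted p = 0.371). Among subunits of the chromosomal passenger complex, Incenp differed by 0.48 (SE 0.13, adjusted p = 0.342), Cdca8 by 0.40 (SE 0.14, adjusted p = 0.409) and the kinase Aurkb by 0.36 (SE 0.14, adjusted p = 0.453). Prc1, Incenp and Aurkb were the 3 of 10 partners whose groups did not overlap (background 5.17%). Cenpe, a kinetochore kinesin whose name falls outside the Kif series, differed by 0.36 (SE 0.24, adjusted p = 0.650), and Racgap1, the partner of Kif23 in centralspindlin, by 0.08 (SE 0.16, adjusted p = 0.894). The count of 5 became 2 without array 03, without 04 or without 23, and 3 without 21.

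Partners of the transport motors, which include kinesin light chains, cargo adaptors and dynein subunits, had a median difference near 0. The list also holds Kifc2 and Kifc3, kinesins whose names fall outside the Kif series. Of 17 listed, 15 were measured, 6 were higher and 9 lower, with a median of -0.020 that turned positive under quantile normalization (0.0058) and centring (0.037), and 0 were at unadjusted p under 0.05 in either direction in limma. The 4 with the smallest p were the light chain Klc1 (0.26, SE 0.14, adjusted p = 0.573), the light chain Klc4 (-0.21, SE 0.18, adjusted p = 0.727), the dynein light intermediate chain Dync1li2 (-0.16, SE 0.20, adjusted p = 0.818) and the dynactin subunit Dctn2 (0.09, SE 0.13, adjusted p = 0.853). Without array 05 Klc4 stood at 0.0085 and Dync1li2 at 0.020.

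**Figure D4:**
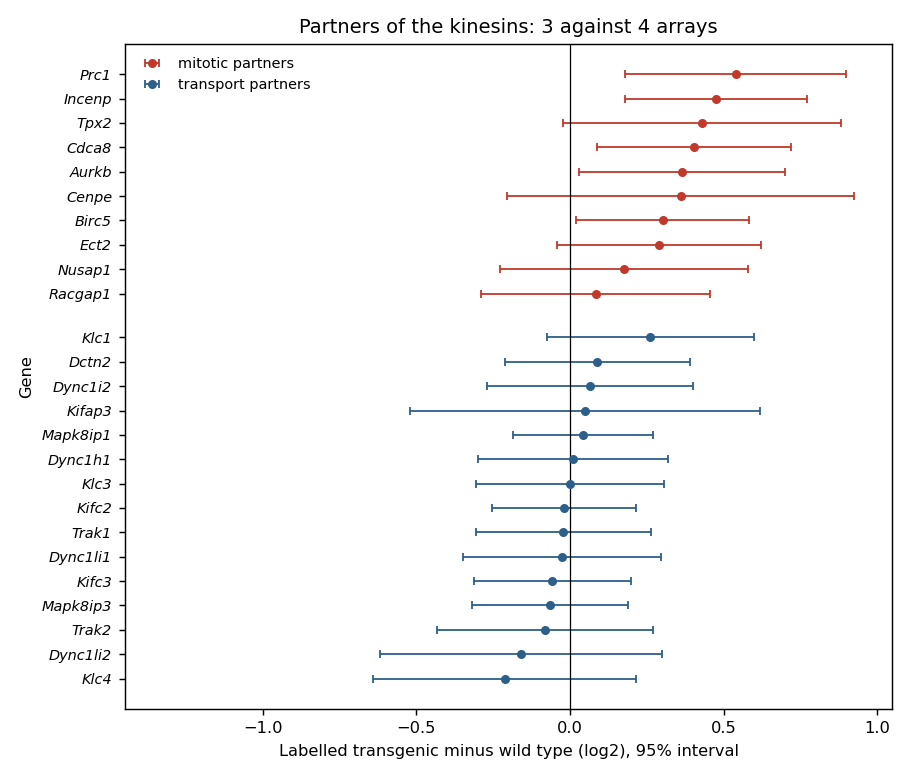
Labelled transgenic minus wild type (log2) with 95% intervals from limma for 10 mitotic and 15 transport partners of the kinesins. The differences of the mitotic partners all lie above 0, from 0.08 (Racgap1) to 0.54 (Prc1). The intervals of Cenpe, Ect2, Nusap1, Racgap1 and Tpx2 include 0. The differences of the transport partners lie on both sides of 0.

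Markers of other blood cells also divided the groups in part. The mean signal of 5 of 6 B cell markers was 5.59 to 5.76 on labelled transgenic and 5.91 to 6.27 on wild-type arrays. The 5 genes lay on both sides of 0, with differences of -1.43 for Ebf1 (limma adjusted p = 0.279), -0.67 for Cd79a and -0.66 for Pax5, but 0.41 for Cd79b and 0.20 for Ms4a1. Ebf1, Cd79a and Pax5, 3 of the 5, were lower without overlap of the groups, against 5.18% of all clusters. Ms4a1 lay under the 40th percentile of mean signal, at 2.74 to 3.29. The mean signal of 4 of 7 erythroid markers was 6.23 to 6.42 on labelled transgenic and 6.06 to 6.21 on wild-type arrays. All 4 of these genes had higher means, but in each the groups overlapped, and 0 were at unadjusted p under 0.05 in limma. For 6 of 7 T and NK cell markers the ranges were 4.58 to 4.71 and 4.58 to 4.79, and for 7 of 9 mature myeloid markers 4.90 to 5.12 and 4.90 to 5.18. Cd4, 1 of the 6 T and NK markers, was lower without overlap (background 5.18%), at a mean signal under the 40th percentile. The part of these differences in the kinesin values was not tested.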

How the data were processed

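Per the submitters' processing notes, the authors made the deposited log2 values with RMA on build mm9. RMA commonly removes background, gives all arrays one probe distribution and averages the probes of a cluster. Array medians of the deposited values still ran from 5.98 (array 05) to 6.21 (array 24), so shifts shared by many clusters were not fully taken out. The sources used here do not give the RMA settings, and the log2 scale was read from the range of values (1.28 to 14.03). Symbols came from the platform annotation, and the Entrez identifiers of all 27 genes gave the same symbol in RefSeq.

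Differences were tested on all 23332 clusters and 7 arrays with limma 3.58.1 in R 4.3.3 (lmFit and eBayes, two-sided, genotype as the only term, no signal filter), with Benjamini-Hochberg adjustment over all clusters and a threshold of 0.05. The code was tested on simulated data. Each array is a separate mouse, and with 3 against 4 of them precision is limited.

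The family, role lists and partner lists were chosen with earlier results of these data known, so no p-value is given for a list. Each mitotic motor, and each other member with signal above the median cluster mean, unadjusted p under 0.05 or groups that do not overlap, is given on every array. Of the partners, up to 4 per list with the smallest p were to be named, and Cenpe and Racgap1 were added after their values were seen. The alternatives were a low-signal filter (40th percentile), quantile normalization, centring on array medians, weighted arrays, an eBayes prior with intensity trend and robust fit, 1 cluster per gene, unmoderated least squares, a threshold of 0.1, wider role lists, the lower Kif1c cluster and leaving out each array. Plots used matplotlib 3.10.9 (Python 3.11.15). Exon usage was not analysed here.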

Additional observations from a re-analysis of the deposited data

How the results depend on the processing

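No kinesin gene passed the adjusted threshold under any of the 16 alternatives run on that count, a threshold of 0.1 included. The mitotic median kept its sign in all 16, from 0.0707 to 0.357 on leaving out 1 array, and so did its gap to the transport median, from 0.0852 to 0.350. The count of kinesins higher at unadjusted p under 0.05 was 2 in the analysis as reported. It was 4 after quantile normalization and after centring on array medians, where Kif11 and Kif22 joined Kif20a and Kif2c. With array weights it was 3, with unmoderated least squares 1, and on leaving out 1 array 1 to 3. The count lower, 0 as reported, was 1 (Kif1c) after quantile normalization and with 1 cluster per gene, and 0 to 1 on leaving out 1 array. The transport motor median ran from -0.0410 to 0.00807 on leaving out 1 array.

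The count of mitotic partners higher at unadjusted p under 0.05, 5 as reported, ran from 2 to 7 on leaving out 1 array. It was 7 after quantile normalization, after centring and with array weights, and 6 with 1 cluster per gene. That of transport partners, 0 as reported, was 1 after quantile normalization, after centring and with array weights, and 0 to 1 on leaving out 1 array. The transport partner median turned positive after quantile normalization (0.00580), after centring (0.0374) and with array weights (0.0488), and ran from -0.0673 to 0.0207 on leaving out 1 array. The cause of these changes was not tested.

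Of the 27 kinesins 13 changed sign under at least 1 alternative, none of them more than 0.13 from 0 as reported. Kif2a stood at 0.0284 after centring and Dync1li2 at 0.00126 with array weights. Leaving out 1 array gave -0.142 to 0.0848 for Kif2a, -0.0438 to 0.156 for Kif3a, -0.0596 to 0.104 for Kif3b, -0.0271 to 0.104 for Kif13a, -0.0125 to 0.252 for Kif15 and -0.0501 to 0.249 for Kif24. Among partners it gave -0.00598 to 0.252 for Racgap1, -0.364 to 0.00846 for Klc4 and -0.290 to 0.0198 for Dync1li2.

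No paired analysis was possible because the groups share no mouse numbers. Differences much under the spread between mice, and changes of dim genes, cannot be resolved with 3 and 4 arrays.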

Other observations

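The CHR letters TTTGAA were also found in 4 of 7 mitotic partners with a RefSeq promoter, and CCAAT in 5 of 7. Tpx2, which activates Aurora A on spindle microtubules, read 8.86, 8.70 and 8.42 on arrays 03 to 05 and 7.96, 8.44, 7.96 and 8.54 on arrays 21 to 24, with wild-type arrays 22 and 24 above 21 and 23 as in most mitotic motors. Over the 10 mitotic partners this order held for 6. Kifap3, the accessory subunit that joins Kif3a and Kif3b, read 6.86, 6.88 and 5.96 against 6.54, 6.44, 6.31 and 6.79, so array 05 was the lowest of the 7. Tpx2 and Kifap3 were chosen after their values were seen.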
